A study of Mus musculus with 4 samples.

Results

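The genes of oxidative phosphorylation (OXPHOS), encoded partly in the mitochondrial genome and partly in the nucleus, were examined in RNA from embryonic cortex of mice homozygous for a Pax6 mutation. Members were found by name: symbols beginning with Ndufa, Ndufb, Ndufc, Ndufs, Ndufv, Uqcr, Cox4 to Cox8 or Atp5, the succinate dehydrogenase genes Sdha to Sdhd, and the mitochondrial mt-Nd, mt-Co, mt-Cytb and mt-Atp genes. The 3 names marked as pseudogenes by "-ps" were dropped. This gave 102 genes of the 22770 in the table, of which 13 are mitochondrially encoded and 89 nuclear encoded. The name rule also takes in assembly and accessory factors (Ndufaf1 to Ndufaf7, Atp5s and Atp5sl) and isoforms best known from other tissues (Cox4i2, Cox6b2, Cox7a1, Cox7b2 and Ndufa4l2), which are given apart from the subunits.

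Cortex was dissected at embryonic day 16.5 from Pax6 sey/sey mutants (2 libraries) and from wild type littermates (2 libraries), all on a mixed background of C57BL/6J, 129S6 and CD1. Sey is a germline point mutation of Pax6, a transcription factor of forebrain progenitors, so every cell of the mutants carried it. RNA was sequenced from whole cortex tissue, and levels are in FPKM, the fragments of a gene scaled to its length and to the library. A bulk measurement cannot tell fewer cells of a type from less RNA per cell. Whether the libraries stand for separate embryos is not in the labels. Xist, the RNA of the inactive X, was at 350.1 FPKM in mutant library 1 and 0.131 FPKM in mutant library 2, against 0.224 and 0.0788 FPKM in the wild types. The mutant libraries therefore came from different animals, while for the wild types the spread behind a p-value may be technical only.

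OXPHOS passes electrons from NADH and succinate through complexes I to IV of the inner mitochondrial membrane to oxygen, and complex V (ATP synthase) uses the resulting proton gradient to make ATP. Complexes I, III, IV and V are built from subunits of both genomes, while complex II is wholly nuclear encoded. The mitochondrial genome is transcribed from both strands as long precursors that are cut into single mRNAs, so its mRNA levels are not independent of each other, whereas each nuclear gene has its own promoter. Neurons are known to depend on OXPHOS more than the progenitors they arise from, which rely to a larger extent on glycolysis.

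The sequences below are shown because they bear on how far single members can be measured apart. Several mitochondrial genes overlap on the compact genome, and reads in the shared bases cannot be assigned to one gene. The open reading frames of mt-Atp8 and mt-Atp6, which are carried by a single mRNA, share 43 bases (chrM:7927-7969, GRCm38, plus strand), and those of mt-Nd4l and mt-Nd4 share 7 bases (chrM:10167-10173). The complete mt-Atp8 (chrM:7766-7969, 204 bases), the first 60 bases of mt-Atp6 (chrM:7927-7986), the last 60 of mt-Nd4l (chrM:10114-10173) and the first 60 of mt-Nd4 (chrM:10167-10226) are given from the GENCODE M21 transcripts, with the shared bases in capitals.
mt-Atp8: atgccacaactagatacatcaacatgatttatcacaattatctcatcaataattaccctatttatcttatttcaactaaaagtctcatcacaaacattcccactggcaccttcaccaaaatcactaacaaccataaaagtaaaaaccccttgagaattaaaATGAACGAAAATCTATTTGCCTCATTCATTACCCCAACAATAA
mt-Atp6: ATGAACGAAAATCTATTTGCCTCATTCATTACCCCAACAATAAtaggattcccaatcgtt
mt-Nd4l: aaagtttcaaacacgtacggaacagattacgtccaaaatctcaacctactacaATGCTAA
mt-Nd4: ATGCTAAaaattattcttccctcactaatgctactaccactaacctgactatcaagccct
In the annotation mt-Atp6 and mt-Co3 also share 1 base, and mt-Nd5 shares 14 bases with mt-Nd6 (chrM:13552-13565), which lies on the opposite strand. Whether the library preparation kept strand is not stated, so mt-Nd5 and mt-Nd6 are uncertain where they meet. As deposited, 7 of the 13 mitochondrial rows shared a locus with another row, and the 13 rows fell into 9 loci.

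Nuclear members lay on 19 chromosomes, with 3 members on the X. Of the nuclear rows, 24 shared a locus with other rows in the deposited file, Ndufb2 and Cox4i1 among them, and 31 genes overlapped exons of another gene, so reads of these may be split. Their promoters were searched on both strands for the letters of 3 factors known for OXPHOS promoters: GCGCA, any base and then GCGC for NRF1, CCGGAAG for ETS factors such as GABP (the complex of Gabpa with a Gabpb protein), and AAGATGG for YY1. A RefSeq promoter (GRCm38.p6, 300 bases, from 250 before to 50 after the gene start) was found by symbol for 72 of the 89 nuclear members. The NRF1 letters were in 19 of these genes (26.4%), against 11.2% of the 10500 tested genes with a promoter and 4.603% of all 32851 promoters. The ETS letters were in 17 (23.6%), against 19.0% of tested genes and 8.86% of all promoters, and the YY1 letters were in 10 (13.9%), against 8.18% and 6.34%. At least 1 motif was in 40 of the 72 genes, at least 2 were in 6, and all 3 in 0. The 250 bases before the start are shown for Ndufs5, with an NRF1 match beginning at -98, and for Atp5l, with an ETS match on the opposite strand at -212, since these 2 complex subunits had the smallest unadjusted p among members with lower values in the mutants. The Ndufs5 stretch is chr4:123718187-123718436 (minus strand) and the Atp5l stretch is chr9:44920743-44920992 (minus strand), each read 5′ to 3′ along the gene with the match in capitals.
Ndufs5: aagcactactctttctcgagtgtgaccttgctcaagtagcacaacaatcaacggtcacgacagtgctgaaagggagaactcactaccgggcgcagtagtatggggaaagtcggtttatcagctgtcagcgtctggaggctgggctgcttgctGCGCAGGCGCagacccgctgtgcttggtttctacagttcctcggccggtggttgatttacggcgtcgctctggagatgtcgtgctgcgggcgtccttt
Atp5l: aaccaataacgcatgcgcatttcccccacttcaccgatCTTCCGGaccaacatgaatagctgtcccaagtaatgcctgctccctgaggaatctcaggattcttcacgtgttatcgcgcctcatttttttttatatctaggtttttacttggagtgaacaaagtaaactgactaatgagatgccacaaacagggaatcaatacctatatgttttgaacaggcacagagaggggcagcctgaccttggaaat

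The OXPHOS genes as a group differed little between Pax6 sey/sey and wild type cortex, and the small differences were mostly towards lower values in the mutants. With genotype tested by limma on log2(FPKM + 0.5) and Benjamini-Hochberg adjustment over the 15399 genes with at least 0.5 FPKM in 2 libraries, 0 of the 100 tested members passed an adjusted p of 0.05, while 3.48% of all tested genes did. At an unadjusted p under 0.05 there were 5 members (5.0%), against 19.5% of all tested genes. Cox7a1 and Cox7b2 were not tested, since each was listed at 0 in all libraries but wild type library 2 (0.950 FPKM of Cox7a1 and 0.411 FPKM of Cox7b2).

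Of the 100 tested members, 71 had a log2 fold change (mutant minus wild type) below 0 and 29 above 0, with a median of -0.05, beside a median of 0.00 over all tested genes. The range ran from -0.35 for Ndufaf6 to 0.44 for Cox6b2. The median size of the change, regardless of sign, was 0.08 in members, 0.17 in all tested genes and 0.11 in the 3468 tested genes with a mean of at least 30 FPKM. No tested member differed by more than 0.5 on the log2 scale, whereas 14.9% of all tested genes and 6.69% of those with at least 30 FPKM did. For 94 of the 100 members the 95% interval of the fold change lay within 1.5-fold in either direction, and for 98 within 2-fold. Both mutant libraries lay below both wild type libraries for 33 members (33.0%) and above both for 10 (10 of 100). Over all tested genes each of these shares was 25.8%.

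**Figure D1:**
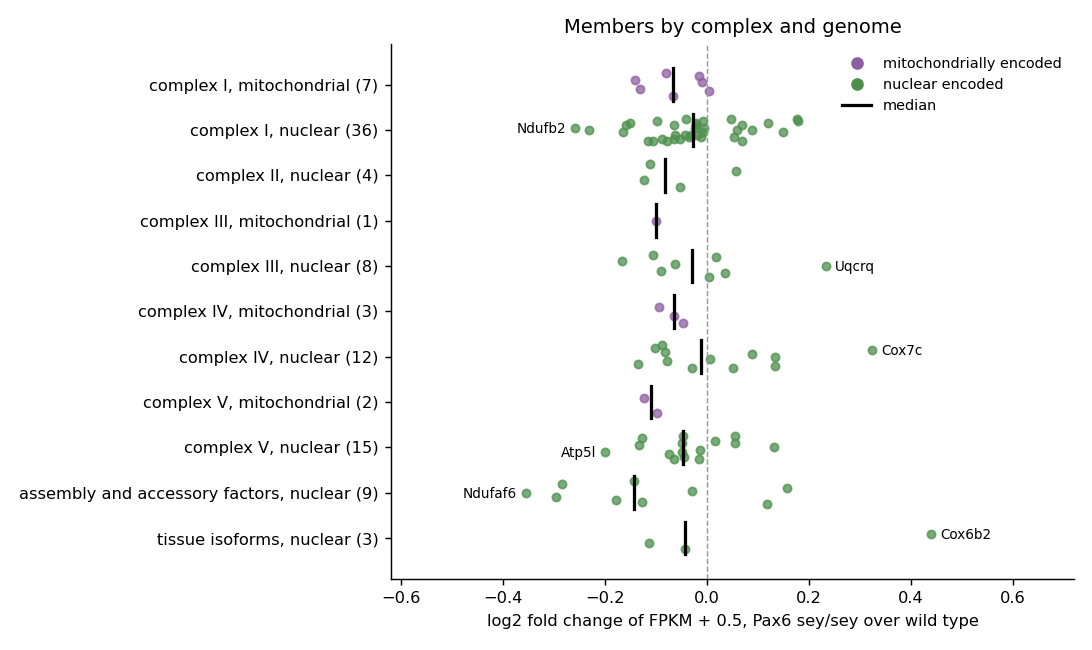
Log2 fold change of each tested member (x axis, log2 of FPKM + 0.5, Pax6 sey/sey over wild type), grouped by complex and by genome on the y axis with the number of genes in brackets. Each point is a gene and each black bar the median of its row. Of the 13 mitochondrial points 12 lie left of 0, the lowest at -0.14, while nuclear members lie on both sides, from -0.35 (Ndufaf6) to 0.44 (Cox6b2).

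The mitochondrially encoded mRNAs lay close together: 12 of 13 had lower means in the mutants, by a median of -0.08 on the log2 scale, and the whole range was -0.14 to 0.00. In 9 of the 13 (69.2%) both mutant libraries were below both wild types, against 25.8% of all tested genes, and in 0 were both above. None of the 13 reached an unadjusted p under 0.05 by limma, and all 13 intervals lay within 1.5-fold in either direction. The 13 come from shared precursors and were measured in the same 4 libraries, so the shared direction is not 13 separate observations.

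Complex I, the NADH dehydrogenase, has 7 mitochondrial subunits, which form its membrane arm. Among them mt-Nd2 had 2109 and 2080 FPKM in the mutants, against 2337 and 2282 FPKM in the wild types. Its log2 fold change of -0.14 (SE 0.06, 95% interval -0.29 to 0.01, limma adjusted p = 0.273) was the most negative of the 13. mt-Nd3 had 1322 and 1393 FPKM in the mutants, against 1497 and 1476 FPKM in the wild types (log2 fold change -0.13, limma adjusted p = 0.304). Both groups were separate for mt-Nd2 and mt-Nd3, with the mutants below. mt-Nd1 had 3368 and 3387 FPKM in the mutants, against 3558 and 3522 FPKM in the wild types, and mt-Nd4 had 2106 and 2152 FPKM in the mutants, against 2298 and 2208 FPKM in the wild types. These 2 genes were separate as well, by -0.07 and -0.08 on the log2 scale. The groups overlapped for the other 3 subunits. mt-Nd4l had 3573 and 3279 FPKM in the mutants, against 3721 and 3196 FPKM in the wild types, with library 1 above library 2 in each genotype. mt-Nd5 had 1063 and 1022 FPKM in the mutants, against 1015 and 1066 FPKM in the wild types, and its log2 fold change of 0.00 was the single one above 0. mt-Nd6, the only member read from the other strand, had 1037 and 969 FPKM in the mutants, against 985 and 1043 FPKM in the wild types.

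For complex III the mitochondrial genome supplies cytochrome b. mt-Cytb had 4516 and 4673 FPKM in the mutants, against 5060 and 4799 FPKM in the wild types (log2 fold change -0.10, limma adjusted p = 0.496). Complex IV, cytochrome c oxidase, takes its catalytic core from mt-Co1, mt-Co2 and mt-Co3. mt-Co1 had 6620 and 6756 FPKM in the mutants, against 6984 and 6846 FPKM in the wild types. mt-Co2 had 4393 and 4544 FPKM in the mutants, against 4989 and 4560 FPKM in the wild types, and mt-Co3 had 3476 and 3549 FPKM in the mutants, against 3762 and 3585 FPKM in the wild types. In all 4 genes the mutants lay below the wild types without overlap, but for mt-Co2 the gap between mutant library 2 and wild type library 2 was far smaller than the gap between the wild types. Of the complex V subunits, mt-Atp6, which forms part of the proton channel, had 3278 and 3261 FPKM in the mutants, against 3586 and 3419 FPKM in the wild types (log2 fold change -0.10).

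mt-Atp8, a small membrane subunit of ATP synthase, stood far above the other members, at 43268 and 39083 FPKM in the mutants and 50364 and 39848 FPKM in the wild types. The groups overlapped, and its log2 fold change of -0.12 had the widest interval of the mitochondrial genes (SE 0.15, 95% interval -0.52 to 0.27, limma adjusted p = 0.722). This single row made up 54.0% and 51.3% of the mitochondrial FPKM in the mutants and 55.9% and 51.2% in the wild types. Although mt-Atp8 and mt-Atp6 are carried by a single mRNA, the ratio of their FPKM was 13.2 and 11.98 in the mutants and 14.05 and 11.66 in the wild types. With the annotated lengths multiplied back in, the ratio was 3.95 and 3.59 in the mutants and 4.21 and 3.49 in the wild types. This product recovers fragments only if FPKM was scaled to the full annotated length, which was not checked. mt-Nd4l, which shares its mRNA with mt-Nd4 in the same way, was at 1.70 and 1.52 times mt-Nd4 in the mutants and 1.62 and 1.45 times in the wild types. By contrast mt-Co3, next to mt-Atp6 on the genome, was at 1.06 and 1.09 times mt-Atp6 in the mutants and 1.05 and 1.05 times in the wild types. At 204 bases mt-Atp8 is the shortest of the 13, and the part of length and of shared bases in its value was not tested. Sums over the mitochondrial genes are therefore given with and without it.

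**Figure D2:**
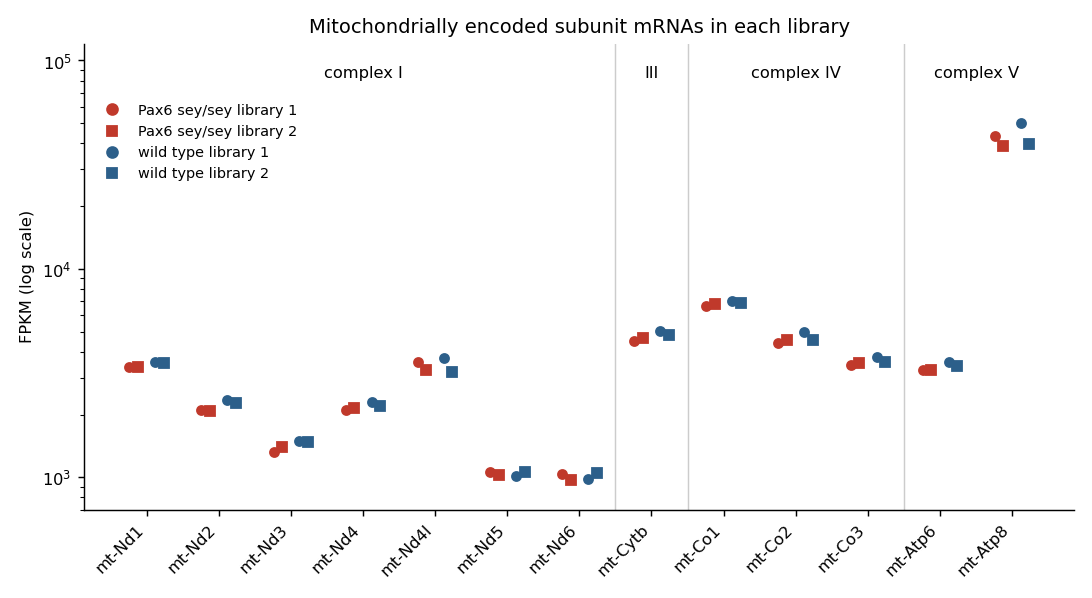
FPKM (y axis, log scale) of the 13 mitochondrially encoded members (x axis, grouped by complex) in each library. Red marks are the Pax6 sey/sey libraries and blue marks the wild types, with circles for library 1 and squares for library 2. mt-Atp8 lies between 39083 and 50364 FPKM, and the other genes lie between 969 and 6984 FPKM, with small gaps between the genotypes.

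The nuclear encoded members were centred close to the mitochondrial ones, with a median log2 fold change of -0.04 over the 87 tested. Of these 59 were below 0 and 28 above, and both mutant libraries lay below both wild types for 24 (27.6%) and above for 10 (11.49%). Among all tested genes the share was 25.8% in each direction, so the lower share was near that of all genes. The median of the mitochondrial genes minus that of the nuclear genes was -0.04 on the log2 scale. The replicate SDs of the 2 medians, combined as if they varied independently, gave 0.039, about as large as the difference itself. Taken within each library, the median mitochondrial minus the median nuclear log2 level had an SD of 0.067 in the mutants and 0.054 in the wild types.

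Nuclear subunits of complex I numbered 36, with a median level of 61.7 FPKM and a median log2 fold change of -0.03. Of these 10 were above 0 and 26 below, and the groups were separate for 8 with lower (22.2%) and 5 with higher (13.9%) mutant values, against 25.8% of all tested genes each way. Ndufs5, an accessory subunit facing the intermembrane space, had 111 and 121 FPKM in the mutants, against 141 and 132 FPKM in the wild types (log2 fold change -0.23, SE 0.07, limma adjusted p = 0.170). Ndufb2, an accessory subunit of the membrane arm, had 63.2 and 63.1 FPKM in the mutants, against 70.9 and 80.7 FPKM in the wild types (log2 fold change -0.26, limma adjusted p = 0.184). Its row shared a locus with neighbouring genes, so its value is uncertain. At the other end Ndufb4 had 33.7 and 29.3 FPKM in the mutants, against 26.4 and 29.2 FPKM in the wild types (log2 fold change 0.18, limma adjusted p = 0.423), where the lower mutant nearly touched the higher wild type. Of the core subunits of the matrix arm, Ndufv1, Ndufv2, Ndufs1, Ndufs3, Ndufs7 and Ndufs8 lay between -0.16 (Ndufs8) and 0.07 (Ndufv2). Ndufs8, at 18.6 and 17.6 FPKM in the mutants and 19.8 and 20.9 FPKM in the wild types, did not pass the test (limma adjusted p = 0.374).

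Complex II, succinate dehydrogenase, joins the citric acid cycle to the chain. Sdha, the flavoprotein, had 63.6 and 76.1 FPKM in the mutants, against 69.3 and 75.2 FPKM in the wild types, and Sdhb, the iron-sulfur subunit, had 63.7 and 76.1 FPKM in the mutants, against 63.5 and 70.6 FPKM in the wild types. The membrane anchor Sdhc had 41.2 and 34.8 FPKM in the mutants, against 39.1 and 43.6 FPKM in the wild types, and the second anchor Sdhd had 45.9 and 44.6 FPKM in the mutants, against 45.3 and 52.8 FPKM in the wild types. The groups overlapped for all 4 genes. Their log2 fold changes lay between -0.12 and 0.06.

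The 8 nuclear subunits of complex III found by the name rule had a median level of 102 FPKM. Their median log2 fold change was -0.03, with 4 on each side of 0. The rule does not take in Cyc1, the cytochrome c1 subunit, which was counted in the list for cytochrome c and coenzyme Q. Cyc1 had 84.4 and 75.6 FPKM in the mutants, against 78.5 and 86.2 FPKM in the wild types. Uqcrh, the hinge protein, was the highest, with 247 and 257 FPKM in the mutants and 242 and 256 FPKM in the wild types. Uqcrq, a small subunit next to cytochrome b, had 99.1 and 78.2 FPKM in the mutants, against 78.0 and 71.9 FPKM in the wild types (log2 fold change 0.23, limma adjusted p = 0.389). The lower mutant, at 78.2 FPKM, was just above the higher wild type, at 78.0 FPKM. Uqcr11 had 81.6 and 98.8 FPKM in the mutants, against 92.6 and 110 FPKM in the wild types, and these overlapped.

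Complex IV held the member closest to the threshold. Cox7c (ENSMUSG00000017778, chr13:86044816-86046904, GRCm38), a small nuclear subunit of cytochrome c oxidase, had 204.9 and 222.3 FPKM in the mutants, against 170.0 and 170.9 FPKM in the wild types. Both mutants were clearly above both wild types, with a log2 fold change of 0.32 (SE 0.06, 95% interval 0.17 to 0.48, unadjusted p = 0.00325, limma adjusted p = 0.0669). Ndufa4 was counted here since it is now placed in complex IV, and Cox7a2l was counted here by its name. The other 11 nuclear members of complex IV lay between -0.14 (Cox6c) and 0.13 (Cox7b). Cox6b1, the highest of them, had 324 and 341 FPKM in the mutants, against 325 and 301 FPKM in the wild types. Cox6c had 272 and 279 FPKM in the mutants, against 289 and 317 FPKM in the wild types (limma adjusted p = 0.337). Whether Cox7c differed from these members was not tested.

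Complex V was the group with the highest single nuclear level. Atp5b, the catalytic beta subunit, had 515 and 467 FPKM in the mutants, against 477 and 541 FPKM in the wild types. Among the 15 nuclear subunits 11 were below 0 and 4 above, and the groups were separate for 6 (40.0%), all with lower mutant values, where 25.8% of all tested genes were separate in that direction. Atp5l, subunit g of the membrane part, had 173 and 169 FPKM in the mutants, against 190 and 204 FPKM in the wild types (log2 fold change -0.20, SE 0.06, limma adjusted p = 0.170). Subunit c, the rotor ring, is made from Atp5g1, Atp5g2 and Atp5g3, which give the same mature protein. Atp5g1 held 15.5% and 16.0% of their summed FPKM in the mutants and 17.1% and 17.5% in the wild types. Atp5g2 held 38.1% and 40.7% in the mutants and 34.7% and 37.6% in the wild types. Atp5g3 held 46.3% and 43.4% in the mutants and 48.2% and 44.9% in the wild types. The shares of Atp5g1 and Atp5g2 were thus separate in opposite directions, while the sum of the 3 genes overlapped, at 493 and 476 FPKM in the mutants and 463 and 501 FPKM in the wild types. None of the 3 passed the test (limma adjusted p = 0.407 for Atp5g1, 0.484 for Atp5g2 and 0.768 for Atp5g3).

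Genes for assembly and accessory factors had the lowest median log2 fold change of the nuclear groups, -0.14 over 9 genes at a median level of 13.1 FPKM. All 7 Ndufaf genes, whose products help to build complex I, had lower means in the mutants. The groups were separate for 3 of the 7, beside 25.8% of all tested genes in that direction. Ndufaf5 had 18.7 and 18.7 FPKM in the mutants, against 21.5 and 24.3 FPKM in the wild types (log2 fold change -0.29, limma adjusted p = 0.200). Ndufaf6 had 8.33 and 6.90 FPKM in the mutants, against 8.98 and 10.8 FPKM in the wild types (log2 fold change -0.35, limma adjusted p = 0.301). Atp5s and Atp5sl lay above 0, by 0.12 and 0.16 on the log2 scale. A separate list of 43 other assembly factors, sharing no gene with these, had a median of -0.04 over the 42 tested, 16 above 0 and 26 below.

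Isoforms known from other tissues were low in both genotypes. Cox4i2, a lung and hypoxia isoform, made up 0.516% and 0.140% of Cox4i1 and Cox4i2 together in the mutants and 0.178% and 0.5001% in the wild types. Ndufa4l2 made up 1.26% and 1.07% of Ndufa4 and Ndufa4l2 in the mutants and 1.47% and 1.05% in the wild types. Cox6b2, a testis isoform, had 1.05 and 2.21 FPKM in the mutants, against 0.717 and 1.38 FPKM in the wild types, and the groups overlapped. The widespread isoforms Cox6a1, Cox7a2 and Cox8a, and Cox7a2l, related to Cox7a2 by name, were all above 100 FPKM in each library. Cox6a2, Cox8b and Cox8c were not analysed here.

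Sex-linked expression differed within the mutant group, so the X-linked members are given apart. Ndufa1 had 81.2 and 84.9 FPKM in the mutants, against 79.1 and 79.3 FPKM in the wild types. Ndufb11 had 60.4 and 68.5 FPKM in the mutants, against 57.8 and 56.0 FPKM in the wild types, and Cox7b had 69.1 and 95.5 FPKM in the mutants, against 72.9 and 75.2 FPKM in the wild types. All 3 were lower in the Xist-expressing mutant library than in the other mutant library. None passed the test.

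Set against each other as whole sets, the genomes gave ratios that overlapped between the genotypes. The nuclear members summed to 9038 and 9094 FPKM in the mutants and 9096 and 9342 FPKM in the wild types. The mitochondrial members summed to 80128 and 76148 FPKM in the mutants and 90157 and 77850 FPKM in the wild types, which overlapped, and without mt-Atp8 to 36860 and 37066 FPKM in the mutants and 39793 and 38003 FPKM in the wild types, which did not. The ratio of the mitochondrial to the nuclear sum was 8.87 and 8.37 in the mutants and 9.91 and 8.33 in the wild types. Without mt-Atp8 it was 4.08 and 4.08 in the mutants and 4.37 and 4.07 in the wild types. In both forms wild type library 1 was the highest, and wild type library 2 was slightly below both mutants. With 2 libraries a group the smallest exact two-sided permutation p is 0.333, so no test was made of these ratios.

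**Figure D3:**
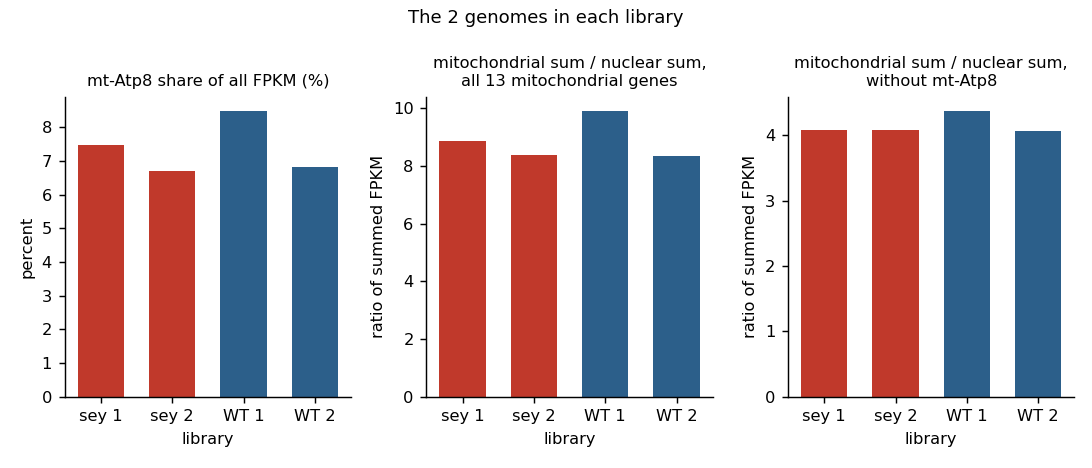
Share of all FPKM taken by mt-Atp8 (left, percent), and the ratio of summed mitochondrial to summed nuclear FPKM with all 13 mitochondrial genes (middle) and without mt-Atp8 (right). Each bar is a library, Pax6 sey/sey in red and wild type in blue. In all 3 panels wild type library 1 is the tallest, and wild type library 2 is close to the mutants.

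Within single complexes the medians of the genomes can be set against each other. For complex I the median mitochondrial FPKM was 34.1 and 32.0 times the median nuclear FPKM in the mutants, against 38.1 and 36.4 times in the wild types. For complex IV it was 21.01 and 21.27 times in the mutants, against 23.8 and 22.4 times in the wild types. In both complexes the mutants were below the wild types without overlap. For complex III the ratio was 43.7 and 45.9 in the mutants and 48.9 and 44.1 in the wild types, and for complex V it was 119 and 109 in the mutants and 142 and 106 in the wild types, with overlap in each. These ratios rest on the middle of each set. For complex III the mitochondrial side is mt-Cytb alone. For complex V it is the midpoint of mt-Atp6 and mt-Atp8, so it mostly follows mt-Atp8, and no ratio without mt-Atp8 was made. For complex I the median nuclear level was 61.8 and 65.1 FPKM in the mutants, against 60.4 and 60.6 FPKM in the wild types. This was so although 26 of the 36 nuclear genes had log2 fold changes below 0. Taken gene by gene, the median log2 fold changes in complex I were -0.07 for mitochondrial and -0.03 for nuclear genes, and in complex IV -0.06 for mitochondrial and -0.01 for nuclear genes.

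The authors' deposited table carries its own p-value for each gene, from a test that is not stated. By the p-values of the authors' deposited table, 6 of the 13 mitochondrial members were under 0.05, all with ratios below 1, beside 1.83% of all rows and 1 of the 89 nuclear members. The authors' deposited table gave mt-Atp8 a ratio of 0.913 with p = 2.96e-32 and mt-Nd2 a ratio of 0.907 with p = 0.00547. For Cox7c the authors' deposited table gave a ratio of 1.253 with p = 0.0217. The mt-Atp8 value stands beside the overlap of the groups described above and beside limma's interval for that gene.

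In the machinery around OXPHOS no gene passed the test. By limma, the count was 0 among 33 for mitochondrial DNA and RNA maintenance, 77 for mitochondrial ribosomal proteins, 28 for mitochondrial translation factors, 15 for cytochrome c and coenzyme Q, 31 for import and cristae, 11 for adenine nucleotide carriers and outer membrane channels, and 28 of the citric acid cycle. Their median log2 fold changes lay between -0.10 (import and cristae) and -0.02 (ribosomal proteins). Of the 11 carrier and channel genes, 5 (45.5%) had a limma unadjusted p under 0.05, against 19.5% of all tested genes. These went both ways. Slc25a5 (log2 fold change -0.31, limma adjusted p = 0.0601), Slc25a4 and Slc25a1 were lower in the mutants, while Slc25a12 and Slc25a13 were higher. In the citric acid cycle, beside 25.8% of all tested genes in each direction, 13 of 28 genes had separate groups with lower mutant values and 1 with higher values. The mitochondrial rRNAs and tRNAs were not analysed here.

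Regulators of mitochondrial biogenesis and enzymes of glycolysis lay further from 0, in opposite directions. Of 16 tested regulators 0 passed the test and 5 had an unadjusted p under 0.05. Their median log2 fold change was 0.16, and 9 had separate groups with higher mutant values and 2 with lower values, beside 25.8% of all tested genes each way. Nrf1, the factor whose motif was searched above, had 20.9 and 20.6 FPKM in the mutants, against 14.4 and 17.5 FPKM in the wild types (log2 fold change 0.37, limma adjusted p = 0.190). Gabpb1, a subunit of GABP, had 30.6 and 31.1 FPKM in the mutants, against 24.1 and 23.9 FPKM in the wild types (log2 fold change 0.36, limma adjusted p = 0.0749), and its partner Gabpa had 23.2 and 23.0 FPKM in the mutants, against 19.4 and 19.8 FPKM in the wild types. The coactivator Ppargc1a was low, at 1.54 and 1.92 FPKM in the mutants and 1.802 and 1.636 FPKM in the wild types. Among tested OXPHOS members with a promoter, the median log2 fold change was -0.05 in the 19 with NRF1 letters and -0.03 in the 51 without. For the ETS letters it was -0.01 in the 17 with and -0.04 in the 53 without, and for YY1 it was -0.04 in 10 and -0.03 in 60.

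Of 22 glycolysis genes, glucose and lactate transporters included, 1 passed the test, beside 3.48% of all tested genes. Aldoc, an aldolase of the brain, fell to 11.96 and 13.01 FPKM in the mutants, against 40.6 and 40.9 FPKM in the wild types (log2 fold change -1.67, SE 0.08, limma adjusted p = 0.00466). The median of the list was -0.17. The groups were separate for 15 genes (68.2%), all with lower mutant values, against 25.8% of all tested genes in that direction. Eno2, the neuronal enolase, had 17.9 and 18.8 FPKM in the mutants, against 24.996 and 26.405 FPKM in the wild types (limma adjusted p = 0.0571). Gapdh, of the same pathway, had 667 and 679 FPKM in the mutants, against 683 and 685 FPKM in the wild types.

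**Figure D4:**
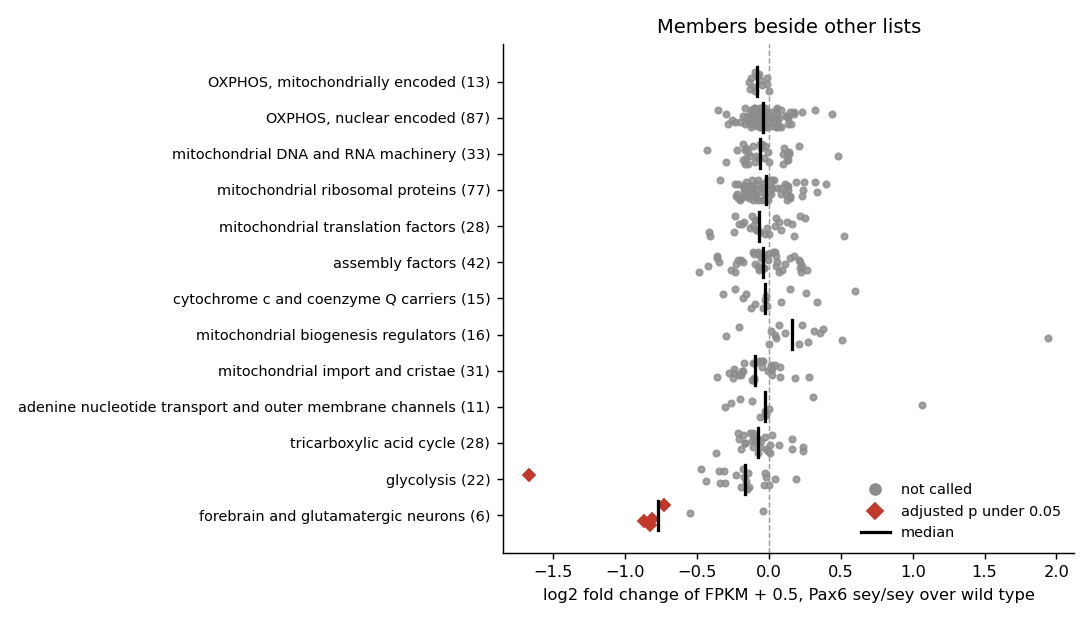
Log2 fold change (x axis, Pax6 sey/sey over wild type, FPKM + 0.5) of each tested gene of the OXPHOS members and of other lists (y axis, number of genes in brackets). Red diamonds passed an adjusted p of 0.05 by limma, grey points did not, and black bars are medians. The OXPHOS medians lie at -0.08 and -0.04, the glycolysis median at -0.17, and 4 of 6 forebrain and glutamatergic genes are red.

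Some markers of cell types moved with genotype, which stands beside every difference above. Of 6 genes marking glutamatergic neurons and forebrain, Tbr1, Neurod2, Neurod6 and Emx1 fell, and the list summed to 842 and 796 FPKM in the mutants, against 1161 and 1273 FPKM in the wild types. Among 5 progenitor genes only Sox2 passed the test, and it rose. Their sum was 261 and 272 FPKM in the mutants, against 198 and 215 FPKM in the wild types, but without Sox2 the sums overlapped. Hes5 and Nes were higher with separate groups but did not pass. Vim overlapped, at 122 and 124 FPKM in the mutants and 107 and 131 FPKM in the wild types. Sox2 alone had 78.5 and 93.1 FPKM in the mutants, against 25.8 and 22.9 FPKM in the wild types. Slc1a3, a radial glia gene of the same list, went the other way without passing the test, at 23.8 and 19.5 FPKM in the mutants and 34.5 and 31.2 FPKM in the wild types. The endothelial genes summed to 56.1 and 45.1 FPKM in the mutants and 38.5 and 38.0 FPKM in the wild types. All 5 were separate with higher mutant values, beside 25.8% of all tested genes in that direction, and 0 passed the test. Microglial genes summed to 10.6 and 10.4 FPKM in the mutants and 12.9 and 17.5 FPKM in the wild types, and 0 of 4 passed. Erythroid genes summed to 1816 and 1748 FPKM in the mutants and 1559 and 1728 FPKM in the wild types, with 0 of 7 passing, and meningeal genes to 18.4 and 3.89 FPKM in the mutants and 2.25 and 1.07 FPKM in the wild types, with 0 of 3 tested genes passing. Choroid plexus and skeletal muscle genes summed to under 2 FPKM in each library. No marker of these lists was at 0 in all 4 libraries, and the part of these shifts in the OXPHOS values was not tested. Pax6 RNA itself was at 100.7 and 120.3 FPKM in the mutants and 28.84 and 27.02 FPKM in the wild types, which checks no label, since a point mutation need not remove the RNA.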

How the data were processed

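RNA from 4 cortex libraries was measured by sequencing. The authors deposited a table of FPKM for each of 22770 genes and library, with a ratio of mutant to wild type and a p-value of an unstated test, per the file headers. Cufflinks 2.2.1, TopHat2 2.0.9 and edgeR are listed in the submitters' processing notes, as are the builds mm10 and GRCm38.p4, with no role for any. How RNA was selected is not stated. Totals ran from 579698 to 593256 FPKM. FPKM keeps no fragment totals. From the steps of the lowest values, depth relative to wild type library 1 was about 0.87 and 1.19 in the mutants and 0.78 in wild type library 2, with 73.0% to 75.7% of these low genes within 0.05 (log2) of the most frequent ratio.

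Genes with at least 0.5 FPKM in 2 libraries were tested on log2(FPKM + 0.5) with limma 3.58.1 in R 4.3.3 (trend, Benjamini-Hochberg over 15399 genes, threshold 0.05), which understates fold changes of low genes. The script was tested on simulated data. Groups came from the labels. Group sums and medians got no test. Some items are not reported here. Members and lists were chosen with earlier results of these data known. Named were all mitochondrial members, isoform sets, complex II and the highest and most changed nuclear member of each complex. Other members, regulators, Cyc1, the Slc25a genes, Eno2 and Gapdh were named after their values were seen. Coordinates and lengths are from GENCODE M21. Alternatives varied the pseudocount, filter, trend, scaling, replicate block and each library left out.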

Additional observations from a re-analysis of the deposited data

How the results depend on the processing

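No OXPHOS member passed the adjusted threshold in the fits with another pseudocount, filter, trend or scaling, with the replicate block, or without any 1 library, and 0 to 1 mitochondrial genes had an unadjusted p under 0.05 in them. The smallest adjusted p of a member (limma) was 0.0669 as reported and ran from 0.0525 with a filter of 5 FPKM to 0.305 without wild type library 2. The number of all genes called was 536 as reported, 61 with no filter, 54 with no trend, 620 of 10329 with the filter of 5 FPKM, and 7 to 59 when 1 library was left out, so an absence of calls there says little. Mitochondrial genes below 0 numbered 12 in 9 of the 10 fits with all libraries, 13 with median centring, and 10 to 13 with 1 library left out. Scaling moved the median of all genes by under 0.01.

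Values over members depended on single libraries. When each library was left out in turn, the median of the mitochondrial genes ran from -0.121 to -0.053, that of the nuclear genes from -0.045 to -0.021, and their difference from -0.082 to -0.025. The log2 ratio of the mitochondrial to the nuclear sum, -0.08 as reported, ran from -0.20 without wild type library 2 to 0.05 without wild type library 1. By complex, the mitochondrial medians ran from -0.111 to -0.057 for complex I, -0.14 to -0.06 for complex III, -0.10 to -0.03 for complex IV and -0.21 to -0.01 for complex V, and the nuclear ones from -0.041 to 0.011 for complex I, -0.156 to 0.001 for complex II, -0.034 to -0.0049 for complex III, -0.033 to -0.0042 for complex IV and -0.083 to -0.0027 for complex V. Cox7c stayed between 0.27 and 0.38. Without mt-Atp8, a choice made after seeing the data, the mitochondrial median was -0.07 and the ratio -0.05. Same-numbered libraries did not deviate together over all tested genes (correlation 0.0492 over 15399 genes), and over the 100 tested members the correlation was -0.267. With 2 libraries a group these values cannot tell whether the numbers pair the libraries. With the replicate block 0 members and 374 of all genes were called, and the smallest adjusted p of a member was 0.0844.

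With 2 libraries a group, differences under about 1.5-fold can be missed, and so can larger ones where replicates differ. The regulator Esrrg, at a log2 fold change of 1.94, did not pass (limma adjusted p = 0.0811). The widest interval of a subunit or factor above 30 FPKM was -0.84 to 0.52 on the log2 scale (Ndufc1).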
